A study of Mus musculus with 16 samples.

Results

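The 7 genes described are Wt1, Msln, Upk3b, Upk1b, Krt7, Lrrn4 and Bnc1, which are used as markers of mesothelium. They were taken as every probe set of the array whose only gene symbol is one of these 7, which gave 10 probe sets of 45141, and the genes are 7 of the 17097 genes tested. Cells came from colons of Gli1CreERT2-ZsGreen mice on a C57BL/6 background, in which a Cre that tamoxifen switches on is driven by Gli1, a target gene and transcription factor of Hedgehog signalling, and leaves a green fluorescent mark. Every mouse received 1 mg of tamoxifen into the peritoneum on 5 consecutive days and by the protocol the colon was taken on day 6, so no group was free of tamoxifen or of the transgene. The labels also give the time as 5 days after tamoxifen, and from which dose this counts was not settled. From each of 4 mice, cells that lacked Epcam, CD45 and CD31 and carried gp38 were sorted into 4 populations, called here as in the labels: Sca1+Gli1ZsGreenhigh, Sca1+Gli1ZsGreendim, Sca1+Gli1ZsGreen- and Sca1-Gli1ZsGreen-. Each population of each mouse was measured on 1 array, which gives 16 arrays in all.

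Mesothelium is the single layer of flat cells that covers the outer surface of the colon and lines the peritoneal cavity. Its cells arise from mesoderm yet carry epithelial traits, such as simple keratins and tight junctions, next to transcription factors of the coelomic lining such as Wt1. They also carry gp38, the product of Pdpn, so the gate used here does not leave them out by its positive marker. Wt1 is a zinc finger transcription factor and Bnc1 a zinc finger protein of epithelial and germ cells. Msln encodes mesothelin, a surface protein held by a lipid anchor that binds the mucin Muc16. Upk3b and Upk1b belong to the uroplakins, membrane proteins first known from the lining of the bladder, and Upk1b is a tetraspanin. Krt7 is a type II keratin of simple and glandular epithelia, and Lrrn4 is a membrane protein with leucine-rich repeats. Wt1 (NCBI gene 22431) and Lrrn4 (320974) lie on mouse chromosome 2, Upk3b (100647) on 5, Bnc1 (12173) on 7, Krt7 (110310) on 15, Upk1b (22268) on 16 and Msln (56047) on 17.

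The promoters of the genes are shown for the pair whose signals moved most alike over the arrays, Upk3b and Lrrn4, and for Krt7, which had the widest differences between populations. RefSeq promoters (GRCm38.p6, 250 bases before to 50 after the start) were at hand for 4 of the 7 genes. They are the + strand of chr5:136038246-136038545 for Upk3b, the - strand of chr2:132880813-132881112 for Lrrn4, whose start in this table lies inside the annotated gene, and the + strand of chr15:101412153-101412452 for Krt7. Capitals mark the letters GGAATG, or CATTCC on the other strand, the core recognised by TEAD factors.
Upk3b: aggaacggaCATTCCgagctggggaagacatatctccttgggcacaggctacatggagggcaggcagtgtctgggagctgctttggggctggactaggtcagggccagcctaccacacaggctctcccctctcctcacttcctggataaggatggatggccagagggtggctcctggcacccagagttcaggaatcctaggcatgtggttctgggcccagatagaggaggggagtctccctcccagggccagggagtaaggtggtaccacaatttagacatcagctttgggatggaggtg
Lrrn4: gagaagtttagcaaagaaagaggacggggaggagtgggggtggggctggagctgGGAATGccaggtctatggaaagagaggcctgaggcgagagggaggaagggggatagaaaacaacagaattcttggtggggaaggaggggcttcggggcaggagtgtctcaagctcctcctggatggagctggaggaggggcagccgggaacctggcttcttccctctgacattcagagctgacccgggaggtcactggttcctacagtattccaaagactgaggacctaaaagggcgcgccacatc
Krt7: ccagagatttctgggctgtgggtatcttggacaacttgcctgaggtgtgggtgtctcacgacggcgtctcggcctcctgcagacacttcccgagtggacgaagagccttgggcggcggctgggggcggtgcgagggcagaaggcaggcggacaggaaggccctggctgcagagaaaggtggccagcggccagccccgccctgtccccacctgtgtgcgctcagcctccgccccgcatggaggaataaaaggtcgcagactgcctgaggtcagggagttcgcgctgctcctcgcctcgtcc
The TEAD letters stood once in the Upk3b promoter, from base -241, and once in that of Lrrn4, from base -196, and were not in those of Krt7 and Bnc1. Of all 32851 RefSeq promoters of this length, 14.7% hold them on either strand. The letters GCGTGGG of WT1 and EGR factors (in 5.04% of promoters) and AGATAA of GATA factors (11.2%) were in none of the 4 windows. The windows differed in base composition: Bnc1 had 50 CG dinucleotides, Krt7 21, Lrrn4 7 and Upk3b 2, where the median promoter had 7. Letters found or not found in these windows are a description of sequence, not of binding.

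Values are whole-number fluorescence signals that were recovered from the deposited standardized scores. Array medians lay between 661 and 686, and no label names a hybridisation day. The highest of the 23 nonspecific control probe sets of an array served as its background: it was 234 to 327 in Sca1+Gli1ZsGreenhigh, 292 to 396 in Sca1+Gli1ZsGreendim, 335 to 488 in Sca1+Gli1ZsGreen- and 329 to 417 in Sca1-Gli1ZsGreen- arrays. A population is called at array background for a gene where all 4 of its arrays are at or below that control. The arrays of 1 of the 4 mice, mouse 2, did not match one another in Xist, the transcript of the inactive X chromosome. Its ZsGreen-positive arrays were low and its ZsGreen-negative arrays high, so their shared mouse label is in doubt. Xist was low in 2 of 4 arrays of each ZsGreen-positive population and in 1 of 4 of each ZsGreen-negative one. It was thus not balanced between ZsGreen-positive and ZsGreen-negative populations, and counts of mice below follow the labels. Calls are therefore also given without mouse 2. Gli1 followed the label between ZsGreen-positive and ZsGreen-negative cells. It averaged 2611 ± 321 and 2323 ± 322 in Sca1+Gli1ZsGreenhigh and Sca1+Gli1ZsGreendim cells against 1104 ± 299 in Sca1+Gli1ZsGreen- and 921 ± 318 in Sca1-Gli1ZsGreen- cells (SD, n = 4 each). The high and dim averages differed by less than their SD, and the gene of Sca1 was not examined. Against the gate, Epcam, the surface protein of epithelium used to remove it, was above the control in all 16 arrays, with 1698 to 6869 in Sca1+Gli1ZsGreenhigh, 6249 to 13623 in Sca1+Gli1ZsGreendim, 12855 to 20560 in Sca1+Gli1ZsGreen- and 10080 to 21786 in Sca1-Gli1ZsGreen- arrays. Pecam1, the gene of CD31, was above it in 16 arrays as well and Ptprc, that of CD45, in 15. Of the fibroblast genes that fit the label, Pdgfra averaged 7832 ± 1193 in Sca1+Gli1ZsGreenhigh, 5975 ± 801 in Sca1+Gli1ZsGreendim, 4664 ± 1827 in Sca1+Gli1ZsGreen- and 4920 ± 2317 in Sca1-Gli1ZsGreen- cells (SD, n = 4 each). In sorted bulk RNA, fewer cells of a type and less RNA per cell cannot be told apart.

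The 7 genes did not behave as 1 group. Krt7, Upk1b and the main Upk3b probe set were above the control in 16 of 16 arrays. Wt1 was above it in 9 arrays and Lrrn4 in 5. Msln and Bnc1 were above it in 0 of 16 arrays, as were 2011 of all 17097 genes, or 11.8%. Msln, the gene that carries the name of the cell type, thus gave no signal beyond the nonspecific controls in any population, and 4 of 19 other mesothelial genes, Muc16, Gpm6a, Rspo1 and Tbx18, were likewise above the control in 0 of 16 arrays. The defining Msln and its partner Muc16, at array background in all 4 populations, thus gave the name of the group no support. Signals below the control do not show that a transcript was absent, and 13 of the 19 other mesothelial genes were above it in all 16 arrays.

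**Figure D1:**
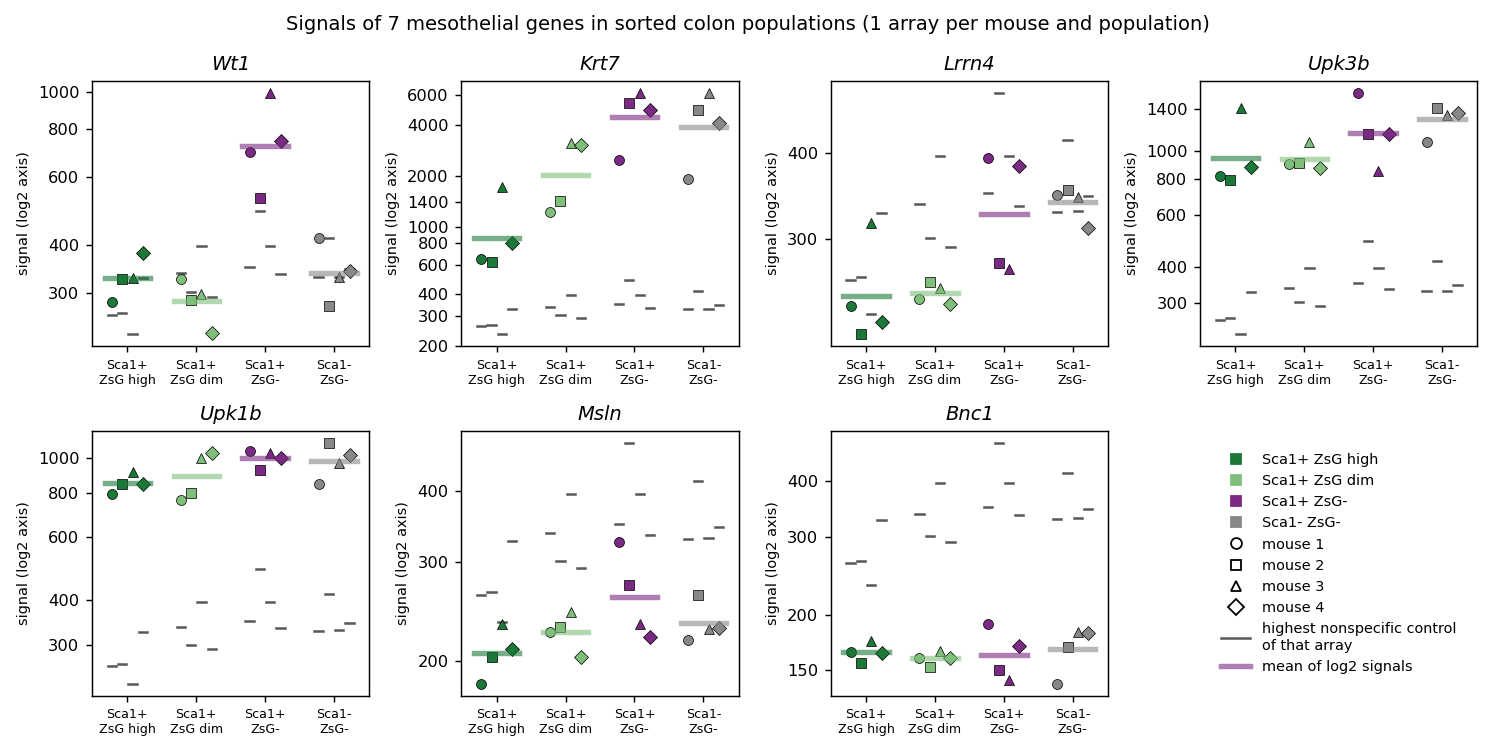
Signals of the 7 genes (vertical log2 axes, arbitrary fluorescence units) in the 4 populations, ZsG standing for Gli1ZsGreen. Each symbol is 1 array and its shape the mouse, wide bars are means of the log2 signals and short grey lines the highest nonspecific control of that array: Wt1 stands apart in Sca1+Gli1ZsGreen- cells, where it lies between 529 and 991, and every Msln and Bnc1 symbol lies below its control line.

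Differences between populations were tested on log2 signals with limma, a linear model that shares information on the spread across genes, and a call is an adjusted p under 0.05 (Benjamini-Hochberg over all 17097 genes). Of the 42 tests, 7 genes in 6 comparisons, 9 passed, 8 lower and 1 higher in the first-named population. In Sca1+Gli1ZsGreenhigh against Sca1+Gli1ZsGreen- cells 4 of the 7 genes passed as lower and 0 as higher, namely Krt7, Wt1, Lrrn4 and Msln, the last at array background in both populations, beside 13.9% of all genes lower and 17% higher. In Sca1+Gli1ZsGreendim against Sca1+Gli1ZsGreen- cells 1 gene was lower, Wt1, and 0 higher, beside 0.608% of all genes lower and 0.901% higher. Between Sca1+Gli1ZsGreenhigh and Sca1+Gli1ZsGreendim cells 0 of 7 genes passed with limma and 1 was lower at an unadjusted p under 0.05, beside 0.93% of all genes lower and 0.485% higher. In Sca1+Gli1ZsGreen- against Sca1-Gli1ZsGreen- cells 1 gene was higher, again Wt1, and 0 lower, beside 1.22% of all genes higher and 1.23% lower.

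Against Sca1-Gli1ZsGreen- cells, 2 of 7 genes were lower in Sca1+Gli1ZsGreenhigh cells, Krt7 and Lrrn4, and 0 higher, beside 16.7% of all genes lower and 19.2% higher. In Sca1+Gli1ZsGreendim cells 1 was lower, Lrrn4, and 0 higher, beside 5.89% and 7.96% of all genes. Of the 10 member probe sets 5, 1, 0, 1, 2 and 1 passed in the 6 comparisons in this order in the fit over all 45037 probe sets, beside 26.2%, 0.933%, 0.757%, 2.31%, 31.2% and 11.6% of all. The median log2 difference of the 7 genes was -0.33 in Sca1+Gli1ZsGreenhigh against Sca1+Gli1ZsGreen- cells, -0.30 in Sca1+Gli1ZsGreendim against Sca1+Gli1ZsGreen- cells, -0.01 in Sca1+Gli1ZsGreenhigh against Sca1+Gli1ZsGreendim cells and 0.03 in Sca1+Gli1ZsGreen- against Sca1-Gli1ZsGreen- cells. Against Sca1-Gli1ZsGreen- cells it was -0.20 in Sca1+Gli1ZsGreenhigh and -0.25 in Sca1+Gli1ZsGreendim cells, while the medians of all genes lay between -0.02 and 0.01. Signals of the populations did not overlap for 3, 2, 0 and 1 of the 7 genes in the first 4 of these comparisons and for 1 and 1 in the last 2, where 30.2%, 10.6%, 11.8%, 5.46%, 31.4% and 13.4% of all genes did not. Over the 4 populations together, limma's F test called Wt1, Krt7 and Lrrn4, 3 of 7 genes beside 32.3% of all genes. Without mouse 2, 5 of the 9 calls held, those of Wt1 and Krt7, and the 4 of Lrrn4 and Msln did not. The comparisons share populations, so their counts are not independent of each other.

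**Figure D2:**
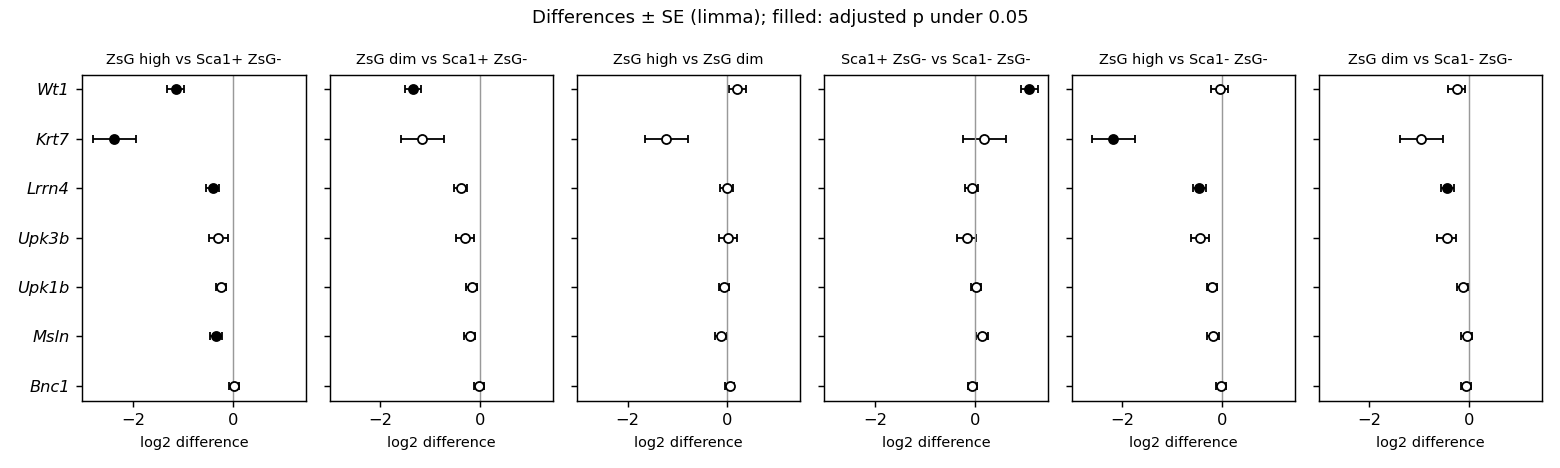
Log2 differences of the 7 genes (horizontal axes, first-named minus second-named population) with standard errors from limma, in the 6 comparisons, ZsG standing for Gli1ZsGreen and ZsG high and dim both being Sca1+. Filled symbols passed an adjusted p of 0.05: Krt7 reaches -2.38, Wt1 is filled in the 3 comparisons that hold Sca1+Gli1ZsGreen- cells, and Upk3b, Upk1b and Bnc1 are open throughout.

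Wt1 was higher in Sca1+Gli1ZsGreen- cells than in each of the other 3 populations. By its suffix, the only probe set of Wt1 may match several transcripts. In mice 1 to 4 its signals were 284, 325, 327 and 381 in Sca1+Gli1ZsGreenhigh cells and 326, 286, 297 and 236 in Sca1+Gli1ZsGreendim cells. They were 695, 529, 991 and 743 in Sca1+Gli1ZsGreen- cells and 417, 277, 330 and 342 in Sca1-Gli1ZsGreen- cells. All 4 Sca1+Gli1ZsGreen- arrays lay above every array of the other populations, which overlapped one another. Sca1+Gli1ZsGreenhigh cells averaged 329 ± 39.8 and Sca1+Gli1ZsGreendim cells 286 ± 37.5, against 740 ± 191 in Sca1+Gli1ZsGreen- cells, while Sca1-Gli1ZsGreen- cells averaged 342 ± 57.7 (SD, n = 4 each).

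The log2 difference of Wt1 was -1.14 ± 0.17 (SE) in Sca1+Gli1ZsGreenhigh against Sca1+Gli1ZsGreen- cells, 2.20-fold between the means of the log2 signals, and all 4 mice were lower (limma, adjusted p = 0.0003449). Sca1+Gli1ZsGreendim cells were at array background and their mean was at least 2.19-fold lower than that of Sca1+Gli1ZsGreen- cells, with all 4 mice lower (log2 difference -1.34 ± 0.17, limma, adjusted p = 0.001638). Against Sca1-Gli1ZsGreen- cells, Sca1+Gli1ZsGreen- cells had a 2.13-fold higher mean, with all 4 mice higher (1.09 ± 0.17, limma, adjusted p = 0.001725). No difference among the other 3 populations passed: the log2 difference was 0.20 ± 0.17 in Sca1+Gli1ZsGreenhigh against Sca1+Gli1ZsGreendim cells, -0.05 ± 0.17 against Sca1-Gli1ZsGreen- cells and -0.25 ± 0.17 in Sca1+Gli1ZsGreendim against Sca1-Gli1ZsGreen- cells (limma, adjusted p = 0.5929, 0.8676 and 0.3658). Scaled to the hybridization controls, the first of these was 0.50 and passed (limma, adjusted p = 0.04851), where the median of all genes moved by 0.31. Signals hold the array background, and Wt1 was near the control in Sca1+Gli1ZsGreenhigh and Sca1-Gli1ZsGreen- cells. That control was itself higher in Sca1+Gli1ZsGreen- arrays, at 335 to 488, than in Sca1+Gli1ZsGreenhigh arrays, at 234 to 327. As a ratio to it Wt1 averaged 1.86 in Sca1+Gli1ZsGreen-, 1.21 in Sca1+Gli1ZsGreenhigh and 0.955 in Sca1-Gli1ZsGreen- cells. In mouse 2 the ratio was 1.08 in Sca1+Gli1ZsGreen- and 1.23 in Sca1+Gli1ZsGreenhigh cells, the reverse of the other mice. The part of the background in these folds was not tested.

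The Wt1 differences held without mouse 2, at -1.28 (adjusted p = 0.007495), -1.50 (0.0293) and 1.15 (0.01203) in the same order. Without mouse 4 the Sca1+Gli1ZsGreendim difference from Sca1+Gli1ZsGreen- cells was -1.24 and did not pass (limma, adjusted p = 0.07799). The next and the last did not pass on the deposited scores (0.2472 and 0.07697), nor did the first with the mean of the colon epithelium list as a covariate (-1.24, adjusted p = 0.2518), where calls of all genes dropped to 1. Within arrays of low and of high Xist, with 1 to 3 arrays a side, the first difference was -1.19 and -1.05, the next -1.19 and -1.46, and the last 0.74 and 1.21. Between Sca1+Gli1ZsGreen- and Sca1-Gli1ZsGreen- cells, where Wt1 differed, 0 of 19 colon epithelium genes, 0 of 11 endothelial genes and 0 of 9 leukocyte genes passed with limma, and at an unadjusted p under 0.05 the counts were 0, then 1 higher and 1 lower, then 1 higher and 1 lower. Summed epithelial signals overlapped there, with 306258 to 466655 in Sca1+Gli1ZsGreen- and 274270 to 492551 in Sca1-Gli1ZsGreen- cells. Other lists did move there: of 7 smooth muscle and Cajal cell genes 3 were lower (limma, 5 at an unadjusted p under 0.05) with a median log2 difference of -1.08, among them Kit, the receptor of Cajal cells, at -2.78 ± 0.23, and their summed signal was 24676 to 54155 in Sca1+Gli1ZsGreen- against 52455 to 106669 in Sca1-Gli1ZsGreen- cells. Of 9 fibroblast genes 1 was higher, Fn1 (5 at an unadjusted p under 0.05), with a median of 0.47 and sums of 312719 to 379564 against 237964 to 361240. No gene of either list was at array background in these populations, and their part in the Wt1 difference was not tested.

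Krt7 had the largest differences of the 7 genes and was lowest in Sca1+Gli1ZsGreenhigh cells. In mice 1 to 4 its signals were 645, 620, 1728 and 805 in Sca1+Gli1ZsGreenhigh cells and 1226, 1416, 3119 and 3029 in Sca1+Gli1ZsGreendim cells. They were 2477, 5403, 6160 and 4886 in Sca1+Gli1ZsGreen- cells and 1907, 4873, 6134 and 4100 in Sca1-Gli1ZsGreen- cells. Every Sca1+Gli1ZsGreenhigh array lay below every array of both ZsGreen-negative populations, Sca1+Gli1ZsGreendim arrays lay in between and overlapped both sides, and in each population mouse 1 or mouse 2 was the lowest and mouse 3 the highest. The means were 950 ± 525 in Sca1+Gli1ZsGreenhigh, 2198 ± 1016 in Sca1+Gli1ZsGreendim, 4732 ± 1591 in Sca1+Gli1ZsGreen- and 4254 ± 1775 in Sca1-Gli1ZsGreen- cells (SD, n = 4 each).

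Krt7 fell by 2.38 ± 0.43 (SE) on the log2 scale in Sca1+Gli1ZsGreenhigh against Sca1+Gli1ZsGreen- cells, or 5.19-fold (limma, adjusted p = 0.001044), and by 2.18 ± 0.43 against Sca1-Gli1ZsGreen- cells, or 4.53-fold (0.001136), and all 4 mice were lower in each. In Sca1+Gli1ZsGreendim cells the difference was -1.15 ± 0.43 from Sca1+Gli1ZsGreen- and -0.96 ± 0.43 from Sca1-Gli1ZsGreen- cells, and that of Sca1+Gli1ZsGreenhigh from Sca1+Gli1ZsGreendim cells was -1.22 ± 0.43. These 3 did not pass (limma, adjusted p = 0.148, 0.1605 and 0.16) although all 4 mice went the same way. With the mouse number as a block they did (limma, adjusted p = 0.006668, 0.008365 and 0.005119), and so they did with a block for arrays of high and low Xist, at -0.87, -0.67 and -1.22 (0.0142, 0.02188 and 0.000529). Sca1+Gli1ZsGreen- and Sca1-Gli1ZsGreen- cells gave a difference of 0.20 ± 0.43, which did not pass (limma, adjusted p = 0.9513).

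Krt7 moved with the epithelial keratins. Over the 16 arrays its log2 signal followed that of Krt18, a type I partner keratin of simple epithelia, with Pearson's r of 0.97 and Spearman's rho of 0.99, that of Krt19 with 0.93 and 0.98, and that of Epcam with 0.97 and 0.96. These are descriptions over arrays of 4 populations that share mice, and with each population's mean removed the r was still 0.94 for Krt18. Krt18 itself averaged 3327 ± 2676 in Sca1+Gli1ZsGreenhigh, 10861 ± 5094 in Sca1+Gli1ZsGreendim, 19354 ± 4426 in Sca1+Gli1ZsGreen- and 16966 ± 6124 in Sca1-Gli1ZsGreen- cells (SD, n = 4 each). All 5 simple keratins listed (Krt8, Krt18, Krt19, Krt20 and Krt23) and all 19 colon epithelium genes measured were lower in Sca1+Gli1ZsGreenhigh cells than in each ZsGreen-negative population. Krt8, Krt18, Krt19 and Krt20 are in both lists, so these counts overlap. None of the 19 epithelial genes was at array background in any population, and their summed signal ranged over 46958 to 188490 in Sca1+Gli1ZsGreenhigh, 200745 to 351105 in Sca1+Gli1ZsGreendim, 306258 to 466655 in Sca1+Gli1ZsGreen- and 274270 to 492551 in Sca1-Gli1ZsGreen- cells. With the mean of that list as a covariate the 2 called Krt7 differences turned to 0.17 and 0.33 (limma, adjusted p = 0.9507 and 0.7285), but its sums do not overlap between these populations, so covariate and population cannot be told apart, and calls of all genes dropped as well, to 1 and 293 with the covariate against 5276 and 6143 without. Without mouse 2 they were -2.13 and -1.91 (limma, adjusted p = 0.02708 and 0.02917), and 16 and 17 of the 19 epithelial genes were lower.

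Genes of other cell types differed in the same comparisons too, some lower like Krt7 and others higher. In Sca1+Gli1ZsGreenhigh against Sca1+Gli1ZsGreen- cells 7 of 11 endothelial genes were lower and 1 higher, 4 of 9 leukocyte genes were lower and 0 higher, 4 of 9 fibroblast genes were higher and 0 lower, and 4 of 7 smooth muscle and Cajal cell genes were higher and 2 lower. Against Sca1-Gli1ZsGreen- cells 8 endothelial and 5 leukocyte genes were lower and 8 fibroblast genes higher. Summed endothelial signals were 12319 to 13563 in Sca1+Gli1ZsGreenhigh cells against 14304 to 21712 in Sca1+Gli1ZsGreen- and 13690 to 37728 in Sca1-Gli1ZsGreen- cells, and summed leukocyte signals 5142 to 7243 against 9376 to 19239 and 8643 to 14847. The leukocyte genes Cd3e and Itgam were above the control in 0 of 16 arrays. Over the 16 arrays Krt7 had r of 0.74 with Pecam1, 0.59 with Ptprc and -0.81 with Pdgfra. The ratio of the 3' to the 5' Actb control signal, a sign of RNA quality, was 1.24 ± 0.031 in Sca1+Gli1ZsGreenhigh cells against 1.11 ± 0.014 in Sca1+Gli1ZsGreen- and 1.11 ± 0.051 in Sca1-Gli1ZsGreen- cells, and that of Gapdh 0.997 ± 0.013 against 0.954 ± 0.0082 and 0.917 ± 0.017 (SD, n = 4 each). The part of these cell types and of RNA quality in the differences of Krt7 and of the other genes in Sca1+Gli1ZsGreenhigh cells was not tested.

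**Figure D3:**
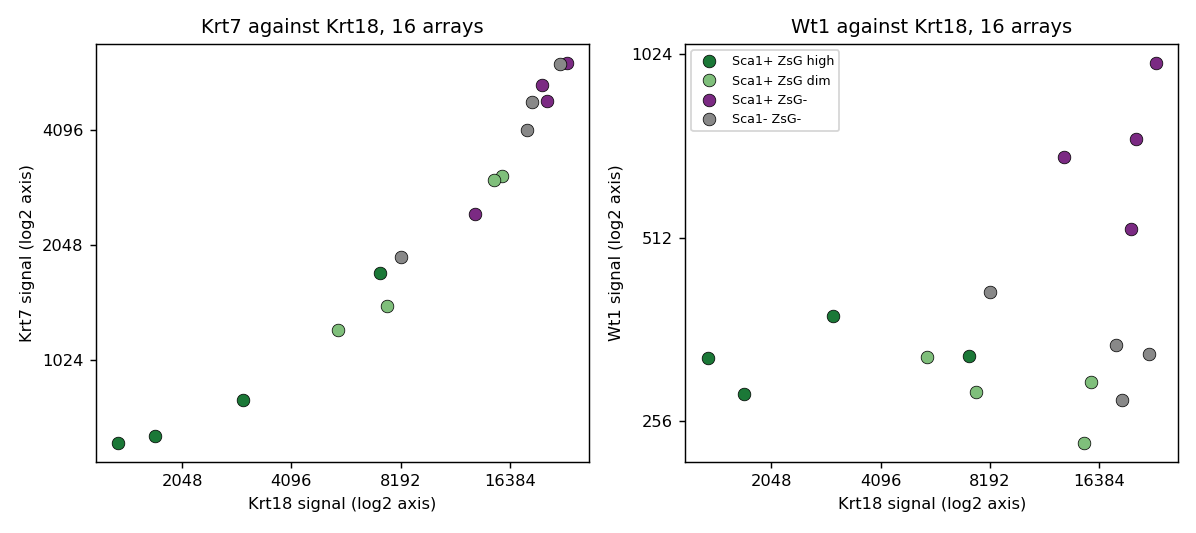
Krt7 (left) and Wt1 (right) signals against the Krt18 signal of the same array, on log2 axes in arbitrary fluorescence units, with 16 arrays coloured by population and ZsG standing for Gli1ZsGreen. Krt7 points lie along 1 line through all populations (r = 0.97), while the 4 Sca1+Gli1ZsGreen- points of Wt1 stand above Sca1-Gli1ZsGreen- points of like Krt18 signal.

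Wt1 did not follow the keratins in this way. Its r with Krt18 was 0.37 and with Krt7 0.40 over the 16 arrays, and Sca1+Gli1ZsGreen- and Sca1-Gli1ZsGreen- cells had overlapping Krt18 signals but separate Wt1 signals. Krt7 went from Sca1+Gli1ZsGreen- down to Sca1-Gli1ZsGreen-, Sca1+Gli1ZsGreendim and Sca1+Gli1ZsGreenhigh, with no step between neighbours called without a block. Of Wt1 only the first place of Sca1+Gli1ZsGreen- cells can be given, since the others were at or near the control.

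Lrrn4 was dim and differed modestly. In mice 1 to 4 its signals were 240, 219, 317 and 228 in Sca1+Gli1ZsGreenhigh cells and 246, 260, 255 and 242 in Sca1+Gli1ZsGreendim cells. They were 393, 277, 272 and 383 in Sca1+Gli1ZsGreen- cells and 348, 354, 345 and 312 in Sca1-Gli1ZsGreen- cells. Sca1+Gli1ZsGreendim arrays were all at background and below every array of both ZsGreen-negative populations, while Sca1+Gli1ZsGreenhigh arrays overlapped them through mouse 3. Against Sca1+Gli1ZsGreen- cells the log2 difference of Sca1+Gli1ZsGreenhigh cells was -0.39 ± 0.13 (limma, adjusted p = 0.03163, lower in 3 of 4 mice) and against Sca1-Gli1ZsGreen- cells -0.45 ± 0.13 (0.01337, lower in 4 of 4). Sca1+Gli1ZsGreendim cells differed from Sca1-Gli1ZsGreen- cells by -0.44 ± 0.13 (limma, adjusted p = 0.03702, lower in 4 of 4), at least 1.03-fold. The nonspecific control was itself lower in Sca1+Gli1ZsGreenhigh arrays, at 234 to 327, than in ZsGreen-negative arrays, at 329 to 488, and its part in these differences was not tested. Without mouse 2 the 3 differences were -0.41, -0.37 and -0.43 and did not pass (limma, adjusted p = 0.09247, 0.1118 and 0.1577), and neither did they without mouse 1 (0.1966, 0.05133 and 0.08483) or mouse 4 (0.251, 0.05646 and 0.1264), nor the last without mouse 3 (0.05041). Nor did they when scaled to the hybridization controls, at -0.01, -0.05 and -0.33 (0.9405, 0.7558 and 0.1973).

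No difference of Upk3b passed in the fit over genes. The signals of its brighter probe set in mice 1 to 4 were 822, 795, 1411 and 879 in Sca1+Gli1ZsGreenhigh and 904, 913, 1080 and 876 in Sca1+Gli1ZsGreendim cells. They were 1587, 1144, 856 and 1147 in Sca1+Gli1ZsGreen- and 1080, 1408, 1333 and 1356 in Sca1-Gli1ZsGreen- cells. The populations overlapped, and in Sca1+Gli1ZsGreenhigh cells mouse 3 was far above the other mice, whereas it was the lowest of the Sca1+Gli1ZsGreen- arrays. The log2 difference from Sca1-Gli1ZsGreen- cells was -0.44 ± 0.19 in Sca1+Gli1ZsGreenhigh and -0.45 ± 0.19 in Sca1+Gli1ZsGreendim cells, and neither passed (limma, adjusted p = 0.08011 and 0.1237). Without mouse 3 both passed, at -0.61 and -0.50 (limma, adjusted p = 0.006022 and 0.04347), and so did the difference of Sca1+Gli1ZsGreenhigh from Sca1+Gli1ZsGreen- cells, at -0.62 (0.00872), against -0.28 ± 0.19 (0.2848) with all mice.

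The dimmer Upk3b probe set, which by its suffix may match several transcripts, was above the control in 2 of 16 arrays. Its signals were 187, 195, 393 and 225 in Sca1+Gli1ZsGreenhigh and 222, 216, 228 and 216 in Sca1+Gli1ZsGreendim cells, against 569, 343, 302 and 317 in Sca1+Gli1ZsGreen- and 264, 303, 304 and 344 in Sca1-Gli1ZsGreen- cells. In the fit over all 45037 probe sets it was lower in Sca1+Gli1ZsGreenhigh than in Sca1+Gli1ZsGreen- cells by 0.63 ± 0.22 on the log2 scale (limma, adjusted p = 0.04174), 1 of the 5 member probe sets called there. Both Upk3b probe sets moved alike over the arrays, with r of 0.86. Upk3b and Lrrn4, whose promoters are shown above, were the most alike pair among the 7 genes, with r of 0.85 and rho of 0.85 over the 16 arrays and with population means removed r was 0.76 for this pair, 0.76 for Upk3b and Msln and 0.75 for Upk3b and Bnc1, so the likeness is not particular to Lrrn4.

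No difference of Upk1b passed either. Its representative probe set had signals of 794, 848, 916 and 844 in Sca1+Gli1ZsGreenhigh and 762, 800, 1001 and 1035 in Sca1+Gli1ZsGreendim cells. It had 1044, 926, 1034 and 1001 in Sca1+Gli1ZsGreen- and 845, 1103, 966 and 1017 in Sca1-Gli1ZsGreen- cells. All Sca1+Gli1ZsGreenhigh arrays lay below all Sca1+Gli1ZsGreen- arrays, by -0.24 ± 0.10 on the log2 scale, which did not pass (limma, adjusted p = 0.1031). It passed with the mean of its probe sets (-0.24, 0.03699) and with the 8 arrays compared alone (-0.24, 0.03313). Scaled to the hybridization controls, which moved the median of all genes by 0.38 in this comparison, the differences of Upk1b and Upk3b turned to 0.15 and 0.10 (limma, adjusted p = 0.4547 and 0.6632). The other 2 Upk1b probe sets ranged over 425 to 610 and 588 to 1024, and the 3 probe sets agreed poorly, with r of 0.76, 0.30 and 0.19 between pairs. Of 6 other uroplakins and related tetraspanins 4 were lower in Sca1+Gli1ZsGreenhigh than in Sca1+Gli1ZsGreen- cells and 5 than in Sca1-Gli1ZsGreen- cells, among them Upk1a, with log2 differences of -0.45 ± 0.14 and -0.61 ± 0.14 (limma, adjusted p = 0.02597 and 0.003539), and the tetraspanin Tspan1, with -2.28 ± 0.33 and -2.31 ± 0.33 (0.0003173 and 0.0001111).

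Msln and Bnc1 carried no measurable level. Msln signals in mice 1 to 4 were 182, 203, 232 and 210 in Sca1+Gli1ZsGreenhigh, 225, 230, 244 and 203 in Sca1+Gli1ZsGreendim, 325, 273, 232 and 220 in Sca1+Gli1ZsGreen- and 218, 262, 228 and 229 in Sca1-Gli1ZsGreen- cells. Every one was at or below its array's control, and the highest 2 were those of mouse 1 and mouse 2 in Sca1+Gli1ZsGreen- cells. Sca1+Gli1ZsGreenhigh against Sca1+Gli1ZsGreen- cells passed (limma, adjusted p = 0.03752) although the populations overlapped. As both are at background, low Msln signal and background cannot be told apart in this difference, and no level or fold of Msln is given. The difference did not pass without mouse 1 or without mouse 2 (limma, adjusted p = 0.296 and 0.1873). Bnc1 signals ran from 156 to 175, 153 to 166, 143 to 191 and 140 to 183 in the 4 populations in the same order, and no comparison passed (limma, adjusted p between 0.6993 and 0.9505). Only when scaled to the hybridization controls did Bnc1 pass, as higher in Sca1+Gli1ZsGreenhigh cells than in both ZsGreen-negative populations.

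Of 20 further genes known from mesothelium, 19 were measured and 13 were above the control in all 16 arrays, and those that passed went both ways. In Sca1+Gli1ZsGreenhigh against Sca1+Gli1ZsGreen- cells 4 were higher and 7 lower, led by Gata6 (-1.99 ± 0.24), Tcf21 (1.34 ± 0.31) and Cldn15 (-1.27 ± 0.20). In Sca1+Gli1ZsGreendim against Sca1+Gli1ZsGreen- cells 2 were higher and 3 lower, led by Tcf21 (1.31 ± 0.31), Stmn2 (1.16 ± 0.17) and Gata6 (-1.10 ± 0.24). Between Sca1+Gli1ZsGreenhigh and Sca1+Gli1ZsGreendim cells 0 of 19 passed with limma, and 2 were higher and 2 lower at an unadjusted p under 0.05. Gata6 is a zinc finger factor of gut endoderm as well as of mesothelium, Cldn15 a claudin of intestinal epithelium, and Tcf21 a factor of fibroblast precursors, and all 3 are thus also known from other cell types.

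In Sca1+Gli1ZsGreen- against Sca1-Gli1ZsGreen- cells 4 of the 19 passed as higher and 0 as lower: Aldh1a2 (1.71 ± 0.26), Efemp1 (1.71 ± 0.28), Ildr2 (0.54 ± 0.09) and Rspo1, which was at array background in every population. Aldh1a2 encodes the enzyme that makes retinoic acid from retinal, and Efemp1 a fibulin of the extracellular matrix. Both were also higher in the other Sca1+ populations: against Sca1-Gli1ZsGreen- cells, Aldh1a2 differed by 1.91 ± 0.26 in Sca1+Gli1ZsGreenhigh and 1.46 ± 0.26 in Sca1+Gli1ZsGreendim cells, and Efemp1 by 2.12 ± 0.28 and 2.02 ± 0.28. In those 2 comparisons 6 were higher and 3 lower, and 5 higher and 3 lower, Gata6 being lower by 1.81 ± 0.24 in Sca1+Gli1ZsGreenhigh and Stmn2 higher by 1.51 ± 0.17 in Sca1+Gli1ZsGreendim cells. The median difference of the 19 genes was -0.08, -0.17, 0.03, 0.15, -0.10 and -0.11 in the 6 comparisons in the order given. Without mouse 2 the counts of higher and lower genes were 3 and 5, 0 and 1, and 0 and 0 in the first 3 comparisons, and 3 and 0, 6 and 2, and 3 and 0 in the last 3.

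Ildr2, an immunoglobulin-domain membrane protein, and Rspo1, a secreted enhancer of Wnt signalling, were picked out after their values were seen because, like Wt1, they passed in each of the 3 comparisons that hold Sca1+Gli1ZsGreen- cells. Ildr2 had 1706, 1423, 1646 and 1668 in Sca1+Gli1ZsGreenhigh and 1370, 1466, 1428 and 1287 in Sca1+Gli1ZsGreendim cells, against 2344, 1919, 2002 and 2605 in Sca1+Gli1ZsGreen- cells, while Sca1-Gli1ZsGreen- cells had 1509, 1459, 1447 and 1632. Its Sca1+Gli1ZsGreen- arrays lay above all others, with log2 differences of -0.45 ± 0.09 and -0.67 ± 0.09 in Sca1+Gli1ZsGreenhigh and Sca1+Gli1ZsGreendim against Sca1+Gli1ZsGreen- cells (limma, adjusted p = 0.002211 and 0.003656) and 0.54 ± 0.09 in Sca1+Gli1ZsGreen- against Sca1-Gli1ZsGreen- cells (0.004153). Rspo1 signals were 180, 180, 205 and 174 in Sca1+Gli1ZsGreenhigh, 183, 180, 174 and 180 in Sca1+Gli1ZsGreendim, 232, 254, 305 and 271 in Sca1+Gli1ZsGreen- and 183, 178, 179 and 187 in Sca1-Gli1ZsGreen- cells. Those of Sca1+Gli1ZsGreen- cells lay above all others (limma, adjusted p of 0.0003492, 0.003074 and 0.0009656 in the same comparisons), but all 16 were below the array controls, so no fold is given.

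**Figure D4:**
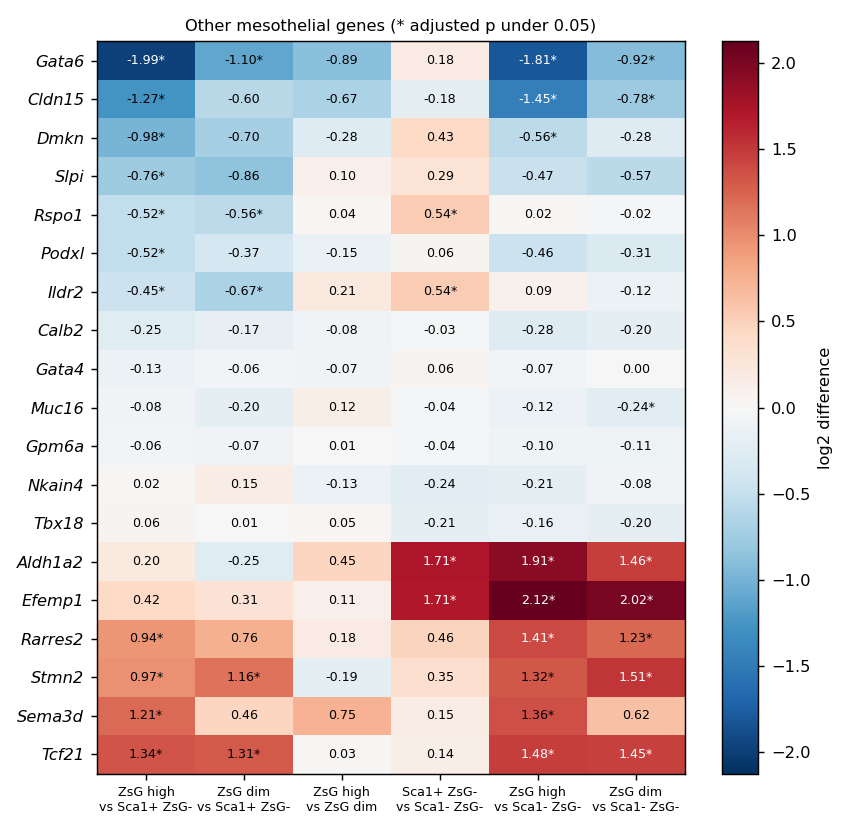
Log2 differences of the 19 further mesothelial genes measured (rows) in the 6 comparisons (columns, first-named minus second-named population), coloured from blue (lower) to red (higher), with ZsG standing for Gli1ZsGreen and an asterisk where limma's adjusted p was under 0.05. Rows turn from blue at Gata6 (-1.99 in the first column) to red at Tcf21 (1.34), and Ildr2 is blue in both columns against Sca1+Gli1ZsGreen- cells, as is Rspo1, whose signals were at array background.

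Genes whose log2 signal was most like each member over the 16 arrays were named for the 5 members above background in at least 1 population. For Wt1 they were Steap4 (Pearson's r 0.90), Angptl4 (0.89) and Slfn5 (0.86). For Krt7 they were Nans, Aldh1l1 and Marveld3, each with r of 0.99. For Lrrn4 they were Tut7 (0.87), Upk3b (0.85) and Fhl5 (0.84), for Upk3b Disp3 (0.83), Tma16 (0.78) and Nhej1 (0.77), and for Upk1b Nipa2 (0.89), Larp1b (0.86) and Slc2a1 (0.86). The search covered the 10005 genes with a named symbol and a mean signal above the median of all probe sets, and its values are a description over arrays that share mice and populations.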

How the data were processed

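Per the labels' protocols, 2 ng of RNA per sample was amplified with an Affymetrix 3' pico kit. How the arrays were summarised, corrected and normalized is not given in the sources used here, beyond the submitters' processing notes, which name Affymetrix Expression Console 1.1. The deposited value is a score, since every one of 45141 probe sets was found to have mean 0 and SD 1 across the 16 arrays, which leaves no level or fold. Whole-number signals whose log2 values give back every score within 1e-09 were searched for and found for all 45141 probe sets (1000 of 1000 simulated probe sets were recovered). They range over 58 to 155937, and their unit is arbitrary.

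Of the probe sets 28898 carry 1 gene symbol in the platform table, 551 several and 15588 none, and 104 are controls. A gene's brightest probe set by mean stood for it, and single probe sets were tested in a fit of their own. Differences were tested with limma 3.58.1 (R 4.3.3) on log2 signals, with 4 population means over all 16 arrays and Benjamini-Hochberg adjustment over all 17097 genes. In simulated data 88 of 100 changes of 1 and 99 of 100 changes of 2 (log2) were recovered in Sca1+Gli1ZsGreenhigh against Sca1+Gli1ZsGreen- cells, with 7 calls among unchanged genes. The simulated arrays were independent of each other, so these counts do not cover arrays that share mice. The labels give the 4 populations of a mouse 1 number, so mouse is a true pairing by label and was tried as a block. Residuals of arrays with the same number correlated by 0.26 on average, and those of different mice by -0.09, but the mean was -0.08 for mouse 2, whose Xist signals do not match. The other alternatives, 30 in all, are in the closing section. The number of arrays limits the precision.

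The 7 genes, the gene lists and the tests were chosen with earlier results of these data known. All 7 genes are named, the other mesothelial genes by the 3 largest changes that passed in each comparison, and the genes most like a member by correlation.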

Additional observations from a re-analysis of the deposited data

Results flagged for a closer look

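In 3 of the 40 groups of 4 arrays tested (10 probe sets in 4 populations) 1 array stood farther from the others than Dixon's 95% critical value allows, where chance gives about 1 in 20. Krt7 in Sca1+Gli1ZsGreenhigh cells was 1728 in mouse 3, against 620 to 805 in the other mice. Epcam was also highest in this array of the population, at 6869. The brighter Upk3b probe set was 1411 in the same array, against 795 to 879 in the other mice. The dimmer Upk3b probe set was 569 in Sca1+Gli1ZsGreen- cells of mouse 1, against 302 to 343 in the other mice.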

How the results depend on the processing

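Over 30 alternatives the members gave 1248 log2 differences or score differences, of which 1182 kept their side of the threshold with no called value turning. Differences that were not called could still change sign among these. Krt7 in Sca1+Gli1ZsGreenhigh against Sca1+Gli1ZsGreendim cells did so with the epithelium covariate (0.53, against -1.22 as reported). Another 43 fell short of the threshold, 19 newly passed it and 4 called or newly called values turned. With the mean of the colon epithelium list as a covariate Krt7 turned to 0.17 and 0.33 in Sca1+Gli1ZsGreenhigh against Sca1+Gli1ZsGreen- and Sca1-Gli1ZsGreen- cells, 0 members passed in these and in Sca1+Gli1ZsGreendim against Sca1-Gli1ZsGreen- cells, and 1 (Wt1) over all populations. Scaling to the hybridization controls moved the median of all genes by 0.38, 0.31 and 0.39 in Sca1+Gli1ZsGreenhigh against Sca1+Gli1ZsGreen-, Sca1+Gli1ZsGreendim and Sca1-Gli1ZsGreen- cells, and made 91.1%, 94% and 90.2% of calls higher there. In Sca1+Gli1ZsGreenhigh cells Msln then turned to 0.049 against Sca1+Gli1ZsGreen- cells. Bnc1, though at array background in every population, newly passed there at 0.40 (limma, adjusted p = 0.02878). Against Sca1-Gli1ZsGreen- cells it turned to 0.38 and passed as well (0.03722). Wt1 passed in Sca1+Gli1ZsGreenhigh against Sca1+Gli1ZsGreendim cells (1 member) and 0 passed in Sca1+Gli1ZsGreendim against Sca1-Gli1ZsGreen- cells.

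With the replicate block (mouse) all 9 calls held and Krt7 joined in 3 comparisons, giving 2 members in Sca1+Gli1ZsGreendim against Sca1+Gli1ZsGreen-, 2 against Sca1-Gli1ZsGreen- cells and 1 in Sca1+Gli1ZsGreenhigh against Sca1+Gli1ZsGreendim cells. The Xist block, chosen after seeing the data, gave the same 2, 2 and 1. With the 8 arrays compared alone 7 of the 9 calls held: in Sca1+Gli1ZsGreenhigh against Sca1+Gli1ZsGreen- cells Lrrn4 and Msln fell short (adjusted p = 0.1003 and 0.08636) and Upk1b passed (0.03313), and 2 members, with Upk3b new (0.03927), passed in Sca1+Gli1ZsGreendim against Sca1-Gli1ZsGreen- cells. On the deposited scores 0 passed there, in Sca1+Gli1ZsGreen- against Sca1-Gli1ZsGreen- and in Sca1+Gli1ZsGreendim against Sca1+Gli1ZsGreen- cells. Probe sets called moved in the same comparisons, over 0 to 3, and in Sca1+Gli1ZsGreenhigh against Sca1+Gli1ZsGreen- cells from 5 to 3 (hybridization scaling, 8 arrays, scores) or 0 (covariate).

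Leaving out 1 array or 1 mouse gave 2 to 5 members in Sca1+Gli1ZsGreenhigh against Sca1+Gli1ZsGreen-, 1 to 4 against Sca1-Gli1ZsGreen- and 0 to 0 against Sca1+Gli1ZsGreendim cells, 0 to 1 in Sca1+Gli1ZsGreendim against Sca1+Gli1ZsGreen- and 0 to 2 against Sca1-Gli1ZsGreen- cells, 1 to 1 in Sca1+Gli1ZsGreen- against Sca1-Gli1ZsGreen- cells, and 1 to 4 over all populations; probe sets gave 2 to 6, 1 to 4, 0 to 0, 0 to 1, 0 to 1 and 1 to 1. Calls of all genes ranged over 1 to 9510 (5276 as reported), 293 to 9887 (6143), 0 to 3856 (242), 0 to 2386 (258), 860 to 3769 (2368) and 28 to 793 (419) under the other settings, in the same order, and without 1 array or mouse over 2734 to 5678, 3838 to 6856, 0 to 833, 10 to 1540, 614 to 4025 and 133 to 789. Quantile normalization, probe set means and eBayes with trend kept all 9 calls, and with probe set means Upk1b also passed in Sca1+Gli1ZsGreenhigh against Sca1+Gli1ZsGreen- cells (-0.24, adjusted p = 0.03699). Causes were not tested. Msln, Bnc1 and Lrrn4 signals at the controls limit what their differences can show.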
